A study of Mus musculus with 2 samples.

Results

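The clustered protocadherin genes of mouse chromosome 18 were examined by DHS-seq in the myeloid progenitor cell line M1. Members were all genes of the deposited table on chromosome 18 whose names begin with Pcdha, Pcdhb or Pcdhg, and each gene was represented by the transcript that covers the most windows. This gave 24 of 22605 genes and 46 of 55432 transcripts. The alpha cluster was listed as 2 genes with 11 transcripts, the beta cluster as 21 genes with 25 transcripts and the gamma cluster as 1 gene with 10 transcripts. 1 library came from untreated M1 cells and 1 from M1 cells kept in medium with IL-6 for 4 to 5 days, both at passages 15 to 18 of the same line and both grown with horse serum. M1 is a mouse myeloid leukemia line that differentiates toward macrophages when IL-6, a cytokine, is added. With 1 library per condition, no difference had a replicate check, and every interval covers counting error only.

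Protocadherins are cell-surface adhesion proteins of the cadherin superfamily, best known from neurons. In the alpha and gamma clusters, each variable exon has its own promoter and encodes an extracellular part, the membrane segment and the start of the cytoplasmic tail. It is spliced to constant exons at the 3′ end of the cluster, which encode the rest of the tail. Beta genes have no constant exons, and a single large exon holds their coding sequence. A neuron uses only some of the variable promoters, and the DNA-binding protein CTCF and the ring-shaped cohesin complex are known to bind at many of them.

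In DHS-seq, nuclei are cut lightly with DNase I and the small fragments that come off accessible DNA are sequenced. The deposited signal of a transcript was averaged over all 700-bp windows overlapping its coding span, and the reads behind it could be recovered as whole numbers. A level is given here as reads per window. For IL-6-treated M1 cells it carries the factor of 1.04 per read that the deposited values already had. A ratio is the level in IL-6-treated M1 cells divided by that in untreated M1 cells. Counting each window once, 1202246 windows on coding spans of the autosomes and X had 9116036 reads in the untreated library and 8557985 in the treated one. Markers of the labelled cell type were covered, from 7.86 reads per window at Ptprc to 46.5 at Cebpa for the 5 myeloid genes found in the table. The 6 neuronal markers found ranged from 2.40 at Snap25 to 27.4 at Syp in M1 cells, so that the ranges of both lists overlapped. After IL-6, 1 of 5 myeloid markers and 4 of 6 neuronal markers had a ratio above 1, with median log2 ratios of -0.52 and 0.44. Their part in the protocadherin values was not tested.

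The names of the listed genes do not follow the variable exons. In the deposited values, 10 alpha transcripts were listed under Pcdha11 and all 10 gamma transcripts under Pcdhgc5. The paper does not name the annotation behind them. The coding spans of all 46 member transcripts equalled those of GENCODE M1 (NCBIM37), which was used here for the exons. The alpha span ran from 37089939 to 37344910 (255 kb), the beta genes from 37424652 to 37680519 (255.9 kb) and the gamma span from 37834150 to 37999783 (166 kb), all on the plus strand. The 3 constant coding exons of the alpha cluster lie at its 3′ end, as do those of the gamma cluster. Spans under Pcdha11 and Pcdhgc5 therefore hold introns and the DNA between variable exons, whereas the beta coding spans are almost wholly exonic. Levels were taken over whole windows, 4 or 5 per beta gene, so they also include DNA that flanks the exon. For Pcdhb14, for example, the windows start at 37606801 and the coding span at 37607497. Pcdha3, with a span from 37105801 to 37108685, lies inside the span of Pcdha11, so its reads are also part of the Pcdha11 reads. The C-type genes Pcdhac1, Pcdhac2, Pcdhgc3 and Pcdhgc4, and Pcdhb20, were not analysed here under names of their own.

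In untreated M1 cells, DNase I signal was low over the alpha cluster, intermediate over the gamma cluster and near the median gene over the beta cluster. The alpha cluster held 1086 reads in 365 windows, a level of 2.98 reads per window (95% Poisson interval 2.80 to 3.16). The gamma cluster held 1162 reads in 238 windows, a level of 4.88 (4.61 to 5.17). The beta genes held 719 reads in 95 windows, a level of 7.57 (7.03 to 8.14). These intervals did not overlap. The median gene had 7.75 reads per window, and among all genes the alpha cluster stood at the 17.3 percentile, the gamma cluster at the 31 percentile and the beta cluster at the 49.0 percentile.

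The sequence under the 3 clusters differed too. GC content was 40.5% over the alpha windows, 45.1% over the gamma windows and 47.9% over the beta windows. Of the 32-bp words starting in these windows, 77.3%, 93.5% and 87.1% occurred once in the genome, in the same order. Reads from repeated words may be placed elsewhere or dropped by an aligner. The part of GC content, of repeated sequence and of exon share in the order of the clusters was not tested.

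After IL-6 treatment, signal was higher over each of the 3 clusters. The alpha cluster held 1534 reads, a level of 4.36 and a ratio of 1.47 (95% Clopper-Pearson interval 1.36 to 1.59). The beta genes together held 904 reads, a level of 9.88 and a ratio of 1.31 (1.18 to 1.44). The gamma cluster held 1466 reads, a level of 6.39 and a ratio of 1.31 (1.21 to 1.42). The intervals of the 3 ratios overlapped one another, and each lay above 1. Over all 698 windows of the 3 clusters, reads went from 2967 to 3904, with a ratio of 1.37 (1.30 to 1.43). On the log2 scale, where 0.5 reads were added to each library, the ratio was 0.55 for alpha, 0.38 for beta and 0.39 for gamma. The median was 0.03 over all genes that exceeded 21 reads in at least 1 of the libraries. Relative to this median the clusters stood 0.53, 0.36 and 0.36 higher. That median covers genes of every length and level, and the ratio varied with level, as described below.

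**Figure D1:**
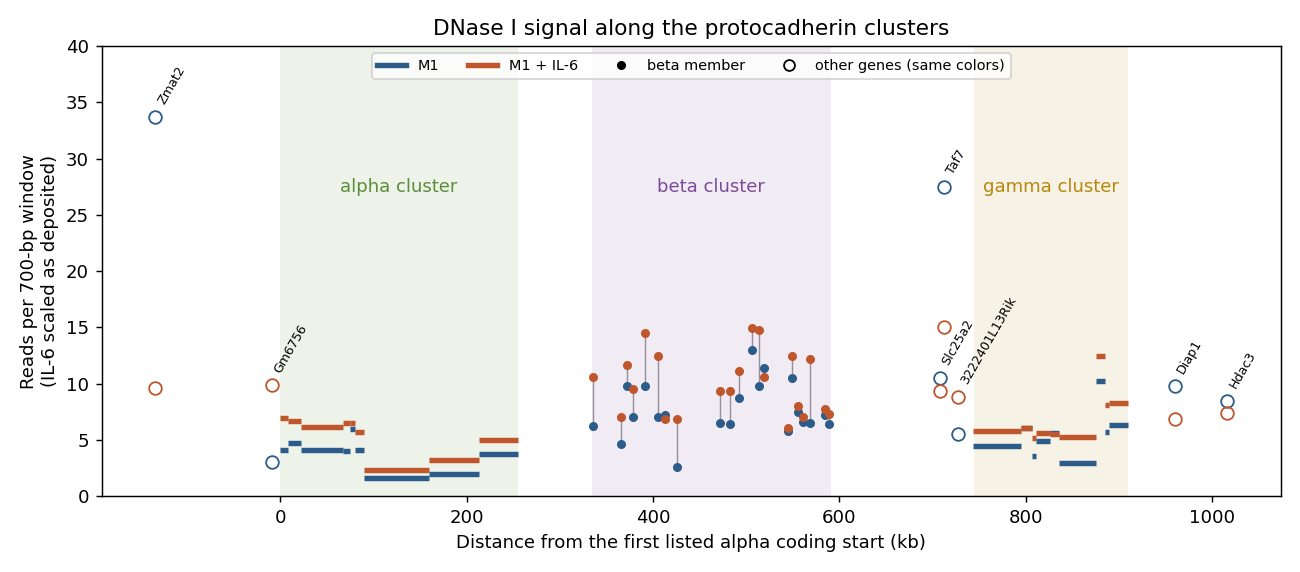
Reads per 700-bp window (y axis, IL-6 library scaled as deposited) against the distance in kb from the first listed alpha coding start (x axis), with untreated M1 cells in blue and IL-6-treated M1 cells in orange. Bars are non-overlapping stretches of the alpha and gamma clusters, filled points are beta genes and open circles are other genes. The orange bars lie above the blue ones over all 9 alpha stretches, whereas Zmat2 goes from 33.7 down to 9.64 and Taf7 from 27.5 down to 15.1.

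Among the 24 members, all of which had more than 21 reads in at least 1 library, 22 had a ratio above 1. The same was true of 51.5% of the 18406 genes with that many reads. The median log2 ratio of the members was 0.42. 1 member was at least 2-fold higher, beside 1.63% of all such genes, and 0 members were at least 2-fold lower, beside 13.5%. The higher member was Pcdhb8, with 13 reads in M1 cells and 33 after IL-6. It passed the limit on reads only through the library in which it was high. At least 1.5-fold higher were 6 members, all of them beta genes, beside 10.7% of genes. The interval of the ratio lay above 1 for 6 members (Pcdha11, Pcdhgc5, Pcdhb1, Pcdhb6, Pcdhb8 and Pcdhb19), beside 29.0% of all such genes, and below 1 for 0 members, beside 34.5%. Intervals narrow with the number of reads, and most beta genes held few. No member was at 0 reads in either library. In M1 cells 16 members were below the median gene, and in IL-6-treated M1 cells 10 were.

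The share of genes with a ratio above 1 varied with the level of signal in these libraries. Among 566 genes of 4 or 5 windows whose summed level was in the range of the beta genes, 70.5% had a ratio above 1 and the median log2 ratio was 0.25. Of the 21 beta genes, 19 had a ratio above 1 and the median log2 ratio was 0.35. Among 11444 genes of any length in the summed range of the members, 60.2% had a ratio above 1, with a median log2 ratio of 0.14. The excess of the beta genes over genes of the same length and level was thus smaller than over all genes. No list of like length and level was made for the long, low spans of the alpha and gamma clusters. Their ratios are therefore not shown to be particular to them.

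**Figure D2:**
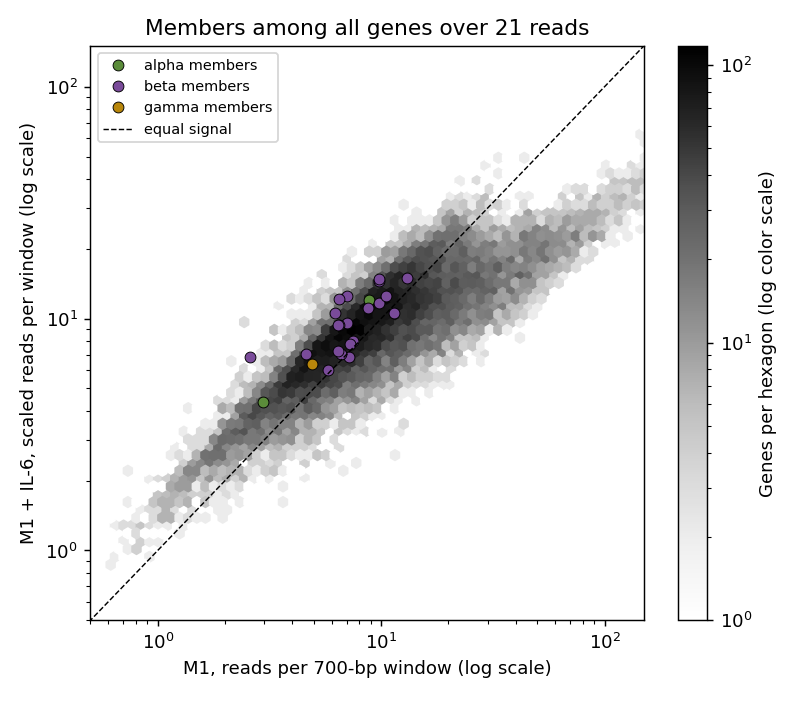
Level in untreated M1 cells (x axis, reads per 700-bp window, log scale) against the level in IL-6-treated M1 cells (y axis, scaled as deposited, log scale), with gray hexagons for all genes past 21 reads in at least 1 library and colored points for the 24 members. Of the members, 22 lie above the dashed line of equal signal, and genes of high signal in M1 cells lie mostly below it.

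The beta genes differed in level among themselves. Their levels in M1 cells ran from 2.60 to 13 reads per window (median 7), and after IL-6 from 6.02 to 14.9 (median 9.55). The highest was Pcdhb12 (37595439 to 37597826), with 65 reads in its 5 windows without IL-6 and 72 with it. Its levels were 13 (10.0 to 16.6) and 14.9, and its ratio of 1.15 had an interval from 0.811 to 1.63 that includes 1. Pcdhb14 (37607497 to 37609887) was next in M1 cells with 57 reads. It held 51 reads after treatment, so that its level went from 11.4 to 10.6 with a ratio of 0.929 (0.624 to 1.38). Pcdhb14 and Pcdhb7 were the 2 members with a ratio below 1, and both intervals include 1. Pcdhb7 held 36 and 33 reads, with a ratio of 0.952 (0.575 to 1.57).

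Pcdhb8 (37514726 to 37517264) was the lowest member in M1 cells and the one with the largest ratio. It held 13 reads without and 33 reads with IL-6 over the same 5 windows. Its level went from 2.60 (1.38 to 4.45) to 6.85, and the ratio was 2.64 (1.35 to 5.46), or 1.36 on the log2 scale. The treated level was still below the beta median of 9.55. No single window of Pcdhb8 exceeded 5 reads in M1 cells or 12 reads in IL-6-treated M1 cells, so the added reads were spread over more than 1 window. Pcdhb2 was the next lowest in M1 cells, with 23 reads and a level of 4.6. It held 34 reads after treatment, and its ratio of 1.53 had an interval from 0.878 to 2.73.

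Pcdhb19 (37656808 to 37659213) had the second largest ratio. It held 26 reads in M1 cells and 47 in IL-6-treated M1 cells, with levels of 6.50 and 12.2 and a ratio of 1.88 (1.14 to 3.16). In M1 cells its 4 windows were nearly even, with an SD between windows of 0.577 and no window above 7 reads. In IL-6-treated M1 cells the SD between windows was 5.90 and the strongest window held 16 to 20 reads. Pcdhb6 went from 28 to 48 reads, a ratio of 1.78 (1.09 to 2.95). Its windows could be split, since its transcripts share a boundary. The 2 windows at the 5′ end held 5 and 0 reads in M1 cells, where a count of 0 allows up to 3 reads, and 7 and 4 in IL-6-treated M1 cells. Those at the 3′ end held 15 and 8 reads, then 21 and 16.

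The genes at the edges of the beta cluster had ratios whose intervals overlapped. Pcdhb1 (37424652 to 37427108), the 5′-most gene, held 31 reads in M1 cells and 51 in IL-6-treated M1 cells, with a ratio of 1.71 (1.07 to 2.76). It was also the member in which 100% of the 32-bp words occurred once in the genome. Pcdhb22 (37678135 to 37680519), the 3′-most gene, held 32 and 35 reads, with a ratio of 1.14 (0.683 to 1.89). In Pcdhb22, 7 reads fell in the 2 windows at the 5′ end in each library, and the 3 windows at the 3′ end held 25 and then 28. In Pcdhb18, the 4 windows at the 5′ end held 32 and 34 reads. Its last window held 1 read in M1 cells and 0 in IL-6-treated M1 cells.

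The remaining beta genes held 26 to 42 reads in M1 cells and 29 to 57 in IL-6-treated M1 cells. Pcdhb15 held 29 reads in each library. Pcdhb17, Pcdhb18 and Pcdhb21 changed by 1 read each, from 30 to 31, from 33 to 34 and from 29 to 30. Pcdhb13 and Pcdhb5 both held 39 reads in M1 cells, and after treatment they held 57 and 56 reads. These 2 intervals, 0.992 to 2.34 and 0.973 to 2.30, reached just below 1. At this depth the interval of a single beta gene was wide, from 0.599 to 1.80 for Pcdhb15, and overlapped those of most other beta genes.

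**Figure D3:**
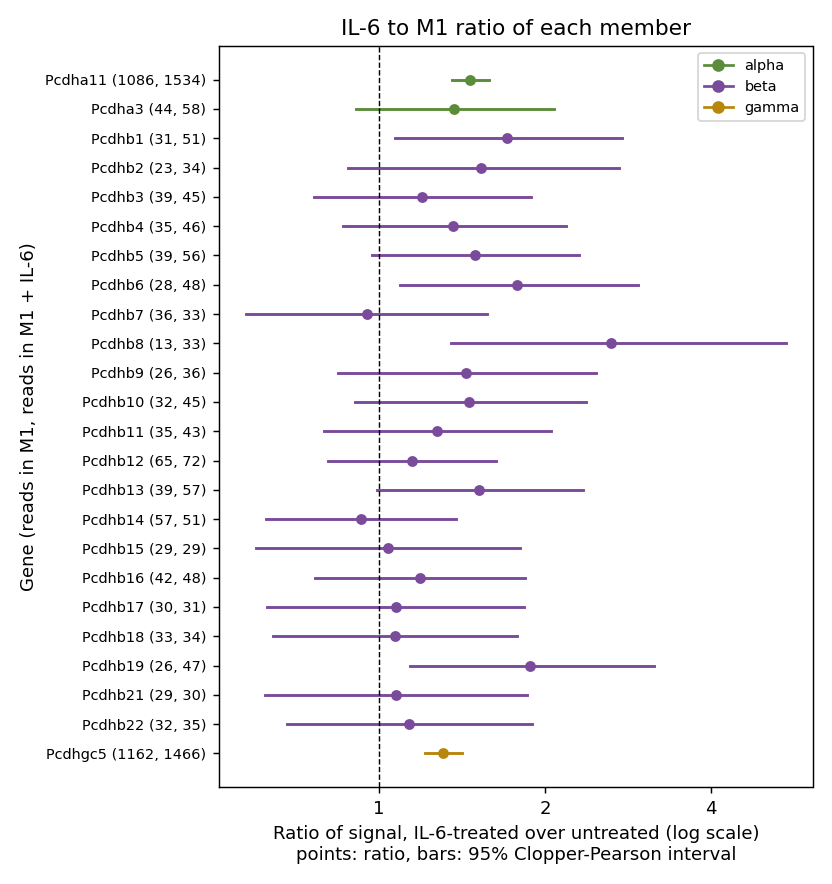
Ratio of the level in IL-6-treated M1 cells to that in untreated M1 cells (x axis, log scale) for each of the 24 members (y axis, in order along the chromosome, with the reads of both libraries in parentheses). Points are ratios and bars are 95% Clopper-Pearson intervals, 6 of which lie wholly above 1 (dashed line), with Pcdhb8 farthest to the right at 2.64.

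Levels of the 21 beta genes in both libraries went together as a description, with a Pearson r of 0.73 and a Spearman rho of 0.68 across genes. These genes are of one length class and are not independent replicates. Across the same 21 genes, the level in M1 cells had an r of 0.19 with GC content and of -0.12 with the share of unique words. The level in IL-6-treated M1 cells had an r of 0.45 with GC content. The share of unique words ran from 74.5% at Pcdhb11 to 100% at Pcdhb1, with a median of 88.2%. Reads of close copies may therefore be divided among neighboring beta genes in a way that the deposited values do not show.

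The mean and SD of a span bound the reads in its strongest window, and a window of more than 21 reads was counted as strong. From the values of their own span, 4 of the 24 members held such a window with certainty in M1 cells, beside 43.7% of all genes with more than 21 reads. These were Pcdha3 with 23 to 28 reads in the strongest window, Pcdhb10 with exactly 23, Pcdhb12 with 33 to 39 and Pcdhb14 with 22 to 30. After IL-6, 6 members did so, beside 21.1% of all such genes. These were Pcdhb5 with 22 to 29, Pcdhb9 with 27, Pcdhb10 with 25 to 29, Pcdhb12 with 42 to 48, Pcdhb14 with 27 to 31 and Pcdhb18 with 23 to 24. Among genes of 4 or 5 windows in the summed range of the beta genes, the share was 9.54% in M1 cells and 3.71% after IL-6, and the beta genes counted 3 and 6 of 21.

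Smaller pieces inside a span set tighter bounds and added members to both counts. The Pcdha3 windows lie inside Pcdha11, and the stretches described further on place a strong window in Pcdha11 after IL-6 and in Pcdhgc5 in both libraries. The 3 windows at the 3′ end of Pcdhb22 held a strongest window of 23 reads after IL-6. With these, 6 members held a strong window in M1 cells and 9 after IL-6, of which 7 were beta genes. No share of all genes was counted with such smaller pieces, so the shares above are not a like comparison for these counts. The Pcdha3 windows counted for both Pcdha3 and Pcdha11 in M1 cells. Pcdha11, Pcdhb10, Pcdhb12, Pcdhb14 and Pcdhgc5 held one in both libraries, which need not be the same window. From the values of their own span, up to 7 members in M1 cells and 14 in IL-6-treated M1 cells could have held one. That count after IL-6 includes Pcdhb6, whose strongest window, once split, held 21 reads and so was not strong. A window above 50 reads was certain in 0 members of either library.

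The share of reads in the strongest window varied among these genes. In Pcdhb10, 23 of 32 reads in M1 cells fell in 1 of 5 windows. In Pcdhb9, 18 of 26 reads in M1 cells and 27 of 36 reads in IL-6-treated M1 cells fell in 1 of 4 windows. In Pcdhb12, at least 33 of 65 reads and then at least 42 of 72 fell in 1 window. In Pcdhb14, 22 to 30 of 57 reads in M1 cells and 27 to 31 of 51 after IL-6 fell in the strongest window. Those bounds overlap the shares of Pcdhb12. In Pcdhb5 it was 22 to 29 of 56 reads after IL-6, a lower share than in Pcdhb12 after IL-6. Which of the windows was the strongest cannot be read from a mean and an SD.

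Because the alpha transcripts end at the same constant exons and start at different variable exons, differences between them gave the reads of 9 stretches that do not overlap. Each stretch is named by the transcript that starts in it and runs to the next listed variable exon. In M1 cells their levels ran from 1.62 to 6 reads per window, and after IL-6 from 2.34 to 6.95. All 9 had a ratio above 1, from 1.08 to 1.70 with a median of 1.45, and the interval lay above 1 in 7 of them. The stretch at the 5′ end, from Pcdha11-204, went from 53 to 87 reads in 13 windows, a ratio of 1.70 (1.2 to 2.45). Its strongest window held 14 to 25 reads without IL-6 and 28 to 47 with it. The stretch from Pcdha11-206, the highest alpha stretch in M1 cells with a level of 6, held 48 and then 50 reads in 8 windows, with a ratio of 1.08 (0.713 to 1.64).

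The 3′ part of the alpha cluster was lower. The stretches from Pcdha11-203 (99 windows) and Pcdha11-201 (77 windows) held 160 and 150 reads in M1 cells, levels of 1.62 (1.38 to 1.89) and 1.95 (1.65 to 2.29). In these stretches 4 and 5 windows touch a listed coding exon. In IL-6-treated M1 cells they held 223 and 238 reads, with ratios of 1.45 (1.18 to 1.78) and 1.65 (1.34 to 2.03). Of the 32-bp words, 54.5% occurred once in the genome in the former and 81.9% in the latter. The last stretch, from Pcdha11-202, holds 1 variable exon and the 3 constant exons. It went from 223 to 289 reads in 60 windows, from 3.72 to 5.00 reads per window, with a ratio of 1.35 (1.13 to 1.61).

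Exon windows and the DNA between them could be told apart at one place in the alpha cluster. In the stretch from Pcdha11-209, 5 windows belong to Pcdha3 and 4 windows to Pcdha11-210. The Pcdha3 windows went from 44 to 58 reads, 8.80 to 12.0 reads per window, with a ratio of 1.37 (0.909 to 2.07). The windows of Pcdha11-210 went from 33 to 37 reads, 8.25 to 9.6 per window. The other 10 windows of the stretch, of which 1 touches a listed coding exon, held 13 reads in M1 cells and 28 in IL-6-treated M1 cells. Their levels were 1.30 (0.692 to 2.22) and 2.91, with a ratio of 2.24 (1.12 to 4.70). In M1 cells, the level of these windows was below the lower bounds of 6.39 and 5.68 for the exon windows beside them. GC content was 38.3% in these windows, 47.7% in those of Pcdha3 and 49.4% in those of Pcdha11-210. Its part in the difference was not tested.

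In the gamma cluster, the same differences gave 9 stretches, with levels from 2.98 to 10.2 in M1 cells and from 5.19 to 12.5 after IL-6. The ratio was above 1 in 7 of the 9, with a range of 0.986 to 1.77 and a median of 1.30, and the interval lay above 1 in 3. The stretch from Pcdhgc5-202 was the lowest of the gamma stretches in M1 cells and had the largest ratio of all 18 stretches. It went from 173 to 295 reads in 58 windows, from 2.98 (2.55 to 3.46) to 5.28 reads per window, with a ratio of 1.77 (1.46 to 2.15). Of its windows, 5 touch the listed variable exon. The stretch before it, from Pcdhgc5-204, held 79 and then 75 reads in 14 windows, with a ratio of 0.986 (0.709 to 1.37). These 2 intervals did not overlap. The stretch from Pcdhgc5-206 was also level, with 97 and 93 reads.

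The stretch from Pcdhgc5-208, which follows that from Pcdhgc5-202, was the highest of both clusters in each library. It held 133 reads in 13 windows in M1 cells, a level of 10.2 (8.57 to 12.1). In IL-6-treated M1 cells it held 156 reads, a level of 12.5, with a ratio of 1.22 (0.960 to 1.55). Its strongest window held 28 to 55 reads in M1 cells and 25 to 54 with IL-6, so a window above 21 reads was certain in both. The stretch at the 3′ end, from Pcdhgc5-203, could be divided into the exon windows of Pcdhgc5-209 and the part downstream of them, which holds the constant exons. The 4 exon windows held 41 and 37 reads, levels of 10.2 and 9.6 with a ratio of 0.937 (0.584 to 1.5). The 26 downstream windows held 150 and 203 reads, with a ratio of 1.40 (1.13 to 1.75).

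**Figure D4:**
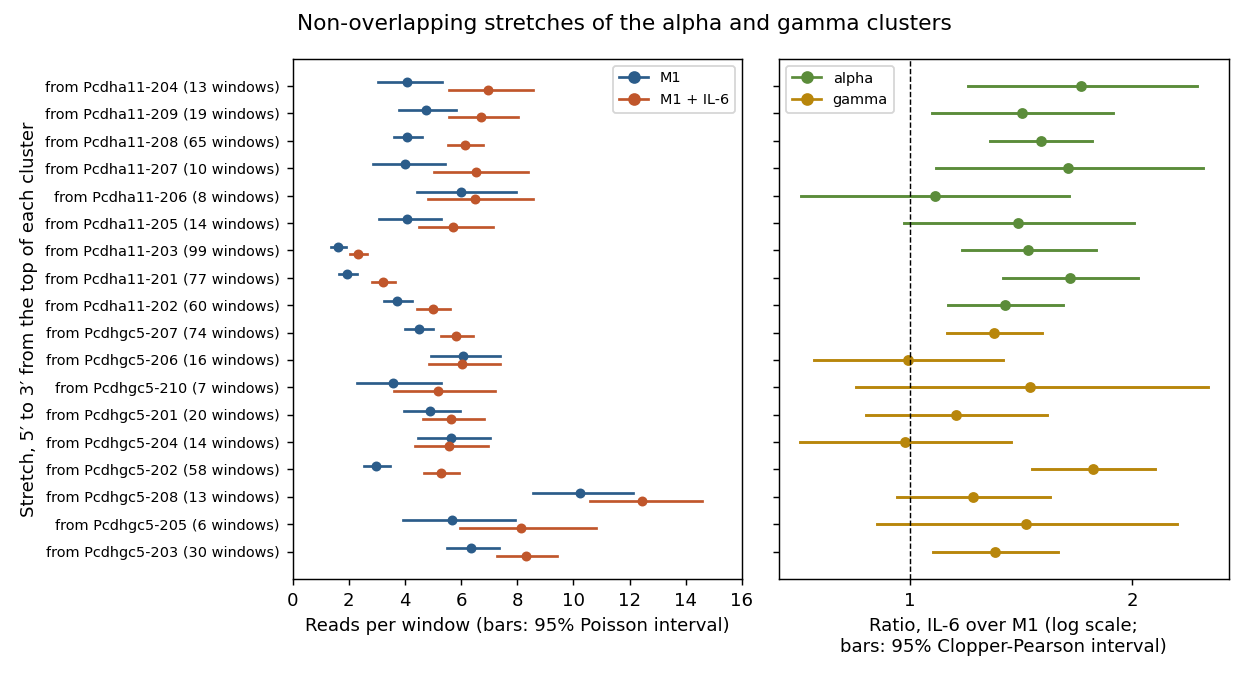
Reads per window (left, x axis, bars are 95% Poisson intervals) in untreated and IL-6-treated M1 cells and their ratio (right, x axis, log scale, bars are 95% Clopper-Pearson intervals) for the 18 non-overlapping stretches of the alpha and gamma clusters (y axis, 5′ to 3′ within each cluster). In 10 of them the interval of the ratio lies above 1, and the stretch from Pcdhgc5-208 is the highest in both libraries.

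Across the 18 stretches, levels in the 2 libraries had a Pearson r of 0.91 and a Spearman rho of 0.75. The level in M1 cells had an r of 0.65 with GC content, of 0.54 with the share of unique words and of 0.35 with the share of windows that touch a listed exon. These are descriptions across 18 stretches of 2 clusters that share a library and, within a cluster, a chromosome region. Taking all 18, 16 had a ratio above 1, with a median of 1.41. With no scaling 16 did, as with equal totals over chromosome 18 coding spans. All 18 did when the totals over coding spans of all chromosomes counted were set equal. No share over like stretches elsewhere stands beside these counts.

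Of the genes beside the clusters, Zmat2, Taf7 and Diap1 were lower after IL-6, with intervals below 1. Zmat2, the nearest upstream gene of the neighbor list, lies 132 kb before the alpha cluster and held 236 reads without IL-6 and 65 with it, a ratio of 0.286 (0.214 to 0.378). Between the beta and gamma clusters, Taf7, which encodes a subunit of the general transcription factor TFIID, held 55 and 29 reads in 2 windows, a ratio of 0.547 (0.337 to 0.874). Slc25a2, a mitochondrial carrier gene beside Taf7, held 21 and 18 reads, a ratio of 0.890 with an interval from 0.447 to 1.75 that includes 1. Diap1, an actin-nucleating formin gene whose span starts 5.21 kb after the gamma cluster, held 1270 and 855 reads, a ratio of 0.699 (0.640 to 0.763). Listed genes of few reads within or beside the clusters did not pass 21 reads in either library. Gm6756, just before the alpha cluster, held 6 and 19 reads in 2 windows, a ratio of 3.29 (1.26 to 10.1). For 3222401L13Rik, before the gamma cluster, with 11 and 17 reads, and for the single window of Gm10545, inside the alpha cluster, with 15 and 21 reads, the intervals of 0.709 to 3.79 and 0.714 to 3.03 include 1.

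Of the 19 neighbors of the clusters found in the table, 18 had more than 21 reads. Of these, 2 had a ratio above 1, beside 51.5% of all such genes, and 7 were at least 2-fold lower, beside 13.5%. Their median log2 ratio was -0.65, and their levels in M1 cells had a median of 15.0 reads per window, above every member. They ran from Ndufa2, a subunit gene of respiratory complex I, whose level went from 102 to 22.8, to Dnd1, an RNA-binding protein gene, whose level went from 15.0 to 17.6. Among all 445 genes of chromosome 18 with that many reads, 60% had a ratio above 1, 46 were at least 2-fold lower and the median log2 ratio was 0.17. The ratio varied with level, and no list of like level was made for the neighbors.

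The protocadherin genes outside the clusters were higher as well. All 12 that were listed had a ratio above 1, their median log2 ratio was 0.66, and 8 were at least 1.5-fold higher. The largest ratio was that of Pcdh10, with 173 reads in M1 cells and 293 in IL-6-treated M1 cells in 77 windows, a ratio of 1.76 (1.45 to 2.13). The smallest was that of Pcdh12, which lies downstream of the clusters on chromosome 18, with 184 and 212 reads and a ratio of 1.2 (0.977 to 1.46). Their levels in M1 cells had a median of 2.37 reads per window, from 0.457 at Pcdh11x to 11.0 at Pcdh8. This median was below that of the clustered members at 7, but the spans are unlike. The genes outside the clusters had a median of 101.5 windows and 38.5% GC, and the clustered members 5 windows and 47.7%.

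Other clustered gene families of single or few coding exons gave like values. Of 1113 olfactory receptor genes, 206 had more than 21 reads. Of these, 84.5% had a ratio above 1, with a median log2 ratio of 0.51. They ran from Olfr1509, whose level went from 619 to 104, to Olfr704, which went from 2.50 to 11.9. Of 46 keratin-associated protein genes, 22 had that many reads, 86.4% of these had a ratio above 1 and the median log2 ratio was 0.60. They ran from Krtap4-2, at 11.0 and 6.23 reads per window, to Krtap31-1, at 6 and 17.1. Both lists count only genes that passed the limit on reads, which a gene could pass through the library in which it was high.

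Genes whose products act on the clusters were listed beside them. Of 16 such genes, 5 had a ratio above 1, 0 were at least 2-fold changed and the median log2 ratio was -0.13. Ctcf, the gene of the DNA-binding protein named above, held 208 and 190 reads, a ratio of 0.948 (0.775 to 1.16), and the cohesin gene Rad21 held 211 and 224 reads, a ratio of 1.10 (0.909 to 1.34). Smchd1, which encodes a chromatin protein that acts on the clusters and the inactive X chromosome, held 1058 and 835 reads, a ratio of 0.819 (0.747 to 0.898). The lowest was Dnmt3a, a DNA methyltransferase gene, with 2697 and 1625 reads and a ratio of 0.626 (0.588 to 0.666). The highest was Dnmt3b, another such gene, with 253 and 303 reads and a ratio of 1.24 (1.05 to 1.47). These values are DNase I signal over coding spans and not levels of RNA or protein.

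**Figure D5:**
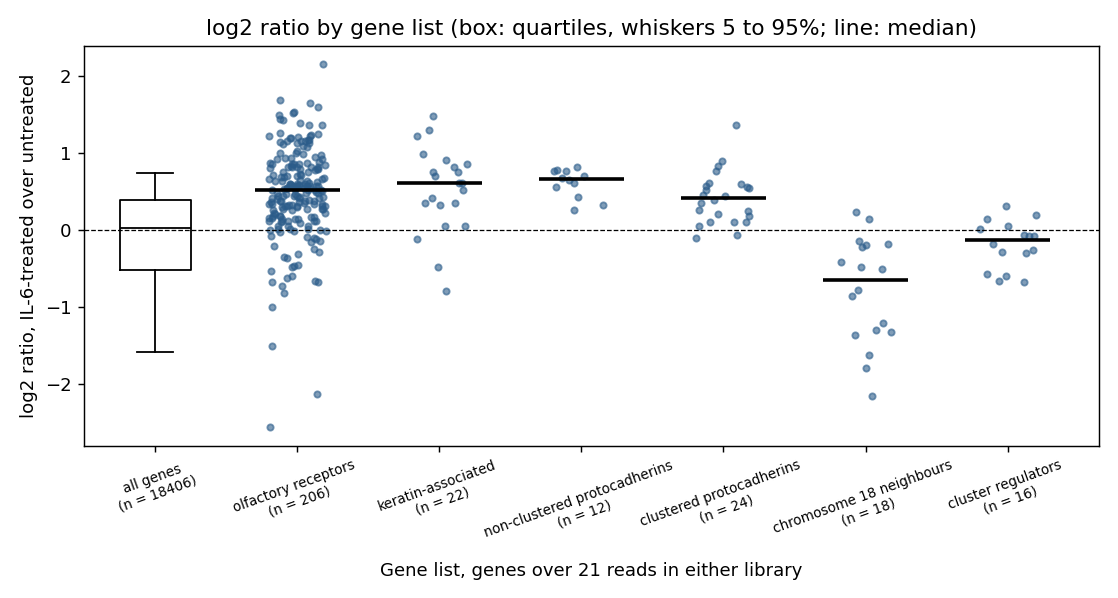
log2 ratio of IL-6-treated over untreated M1 cells (y axis, 0.5 reads added to each library) for genes past 21 reads in at least 1 library, by list (x axis, with the number of genes). The box shows the quartiles of all genes with whiskers at 5 and 95%, points are genes and black lines are medians, at 0.42 for the clustered protocadherins, 0.66 for the other protocadherins and -0.65 for the chromosome 18 neighbors.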

How the data were processed

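The authors digested nuclei of untreated and IL-6-treated M1 cells with DNase I, sequenced the released fragments, trimmed the reads, aligned them with BWA to NCBIM37 (mm9) and summarized them with Seqmonk. Versions are not given in the sources used here. Each deposited signal value is a mean or an SD across 700-bp windows laid from the first base of a chromosome. Reads were recovered as mean times windows divided by the value of 1 read (1 in M1, 1.038 after IL-6), and 100% of 55432 rows came within 0.05 of whole reads. No row ended beyond its NCBIM37 chromosome. The steps were tested on simulated data. No p-values were computed, since each of the 2 conditions had 1 library. The study's text names both single-read and paired-end sequencing, and if mates were counted apart, reads are not independent fragments and the intervals are too narrow. Reads have exact Poisson and ratios Clopper-Pearson intervals at 95%. The log2 ratio adds 0.5 reads, and gene counts use more than 21 reads in either library. Alternatives changed the scaling, added reads, row choice, fold, read limit, percentile reference and window threshold. Named genes were the edge members of each cluster, the C-type genes, the 2 highest and 2 lowest in level and in log2 ratio, members changed at least 2-fold or at 0 reads, flanking genes and the extremes of each list. Other genes named were chosen after their values were seen. Members and lists were chosen with earlier results of these data known. Software was matplotlib 3.10.9, numba 0.67.0, scipy 1.17.1, pandas 2.3.3, numpy 2.4.6 and Python 3.11.15.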

Additional observations from a re-analysis of the deposited data

How the results depend on the processing

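Of 57 alternative values for 15 results, 40 stayed close to the reported value, 17 moved and 0 reversed. Some of the 40 could not have changed, such as member counts without the limit on reads, which all 24 members pass. The largest shifts in ratio came from a single scaling, the median of ratios, while values under the other scalings stayed close. Changing the percentile reference also moved values, as given below. With the median of ratios over 544 single windows of at least 22 reads in both libraries, every log2 ratio shifted by 1.83 and 97.4% of all genes were higher. At least 2-fold higher were then 24 members, beside 15293 of the 18406 genes with more than 21 reads. The cluster ratios were 5.2 for alpha, 4.63 for beta and 4.64 for gamma. A scaling shifts every log2 ratio alike. The distance of the clusters from the median of all genes therefore cannot change with it, and is no check. With no scaling, 21 of 24 members and 47.9% of all genes had a ratio above 1. At least 1.5-fold higher were 6 members. With more than 50 reads required, 8 members were counted, of which 7 had a ratio above 1 and 0 were at least 2-fold higher. No share of all genes was counted at that limit. Among genes of a similar number of windows, beta stood at the 41.8 percentile and gamma at 38.4 in M1 cells, and after IL-6 alpha stood at 24.5, beta at 48.1 and gamma at 46.3. Among chromosome 18 genes in M1 cells, alpha stood at 14.0, beta at 62.5 and gamma at 34.95. With a threshold of 50 reads, 0 members held a strong window in M1 cells and 0 in IL-6-treated M1 cells. No paired analysis was possible because there was a single library for either condition and no test. Depth limited single beta genes, which held 13 to 72 reads.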
